A study of Mus musculus with 6 samples.

Results

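The interstitial matrix genes are a set of 36 genes for collagens, elastic fibre proteins, proteoglycans, matricellular proteins and the enzymes that process or cross-link them, named by symbol. Of these, 34 could be read on the array by a probe set annotated to that 1 gene alone, out of 18193 genes read in this way. The probe set with the highest mean over the arrays stood for each gene. Fbn1 is named here by no probe set, and Loxl2 only by probe sets annotated to 2 genes, so neither was measured. Gene expression was compared between the 2 tissue layers of the lower urinary tract (bladder neck with urethra) at embryonic day 13, which is Theiler stage 21. The embryos were wild-type mice of the FVB/N strain, of unknown sex. Descriptions of the dissection place the cut variously above, at or below the ureters, so the exact extent of the tissue is not settled. Urothelium, the epithelial layer, was hybridised to arrays 1, 2 and 5 and mesenchyme to arrays 1, 2 and 3, each RNA being amplified in 2 rounds before labelling. All 6 samples had been exposed to trypsin to part the layers, and none carried a mutation, a transgene or another treatment. Samples were single, not pooled, but it is not recorded whether each came from its own embryo, so p-values measure the spread between these samples, which may be technical.

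Interstitial matrix is the fibrous and hydrated material between mesenchymal cells. Fibrillar collagens bear tension, elastic fibres of elastin laid on fibrillin microfibrils give recoil, and proteoglycans bind water, growth factors and collagen. Collagen and elastin become stable only after cleavage of the procollagen ends and cross-linking by lysyl oxidases. In the bladder and urethra this matrix lies beneath the urothelium and around the smooth muscle of the wall.

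Mesenchyme array 1 stood apart from the other mesenchyme arrays. Across tested genes its log2 values correlated at 0.784 with mesenchyme 2 and 0.755 with mesenchyme 3, which correlated at 0.981 with each other, while the epithelium arrays correlated at 0.922 to 0.958 among themselves. The summed normalized signal of 12 epithelial markers was 78273 on mesenchyme 1 against 14355 and 3217 on mesenchyme 2 and 3 and 186125 to 217480 on the epithelium arrays. All 10 markers of organs outside the urinary tract, among them the liver gene Alb, were over 4-fold higher on mesenchyme 1 than on mesenchyme 2 and 3, with sums of 292336 against 1376 and 1211. The same held for 7 of 10 cartilage markers, with sums of 39248 against 12432 and 9284, for 2 of 7 measured bone and tendon markers, with sums of 10483 against 5414 and 5254, and for 4 of 8 leukocyte markers, with sums of 47959 against 11717 and 8314. The 12 mesenchymal markers summed to 118085, 157955 and 173398 on mesenchyme 1, 2 and 3 against 30194 to 46846 on epithelium. Vim alone made up 54917, 55657 and 59268 of these mesenchyme sums. On mesenchyme 1, Vim, Pdgfra, Pdgfrb, Twist2, Prrx1, Zeb1, Zeb2 and Meox2 lay above every epithelium array. Twist1, Tcf21, Foxf1 and Snai2 did not, at 467, 261, 871 and 8406, and all 4 were higher on mesenchyme 2 and 3. The part of such other tissues in the matrix signal was not tested. Results are given with all 6 arrays and again without mesenchyme 1.

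All 34 measured matrix genes had a higher mean in mesenchyme than in epithelium, both with all 6 arrays and without mesenchyme 1. With all arrays, 19 of the 34 passed the test (limma with Benjamini-Hochberg adjustment over 13717 genes, adjusted p under 0.05), each of them higher in mesenchyme, against 4.03% of all genes tested. Without mesenchyme 1, 25 of 34 passed, all higher in mesenchyme, against 8.2% of 13576 genes, and all 19 of the first fit were among them. None was higher in epithelium in either fit, where 1.95% and 6.41% of all genes were. Without the adjustment, 28 of 34 had p under 0.05 with all arrays and 31 without mesenchyme 1, where 10.9% and 14.2% of all genes did so as higher in mesenchyme. The count of 19 fell to 6 without epithelium 1, to 12 without epithelium 5 and to 8 without mesenchyme 2. Over all genes the count was likewise lowest without epithelium 1, as given with the processing below. Such a fall is thus not particular to the matrix genes. In these layers of tissue, fewer cells of a type and less RNA per cell cannot be told apart.

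Differences are epithelium minus mesenchyme on quantile-normalized log2(signal + 16), so a negative value is higher in mesenchyme, and folds are mesenchyme over epithelium on that scale, on which changes of dim genes come out too small. The median difference of the 34 genes was -2.55 (range -6.09 to -0.15), beside 0.12 over all genes tested. Without mesenchyme 1 the medians were -2.17 and 0.02. Centring each array on its median moved the median of all genes to 0.23. Taken relative to the median of all genes, the matrix genes lay at -2.67 by quantile normalization and -2.72 by median centring. Of the 34, 24 were at least 4-fold and 10 at least 10-fold higher in mesenchyme, and the shares of all genes at these folds were not counted. In 30 of the 34, every mesenchyme array lay above every epithelium array, as in 13.2% of all genes. In 32 of 34, both mesenchyme 2 and mesenchyme 3 did so, as in 22.4% of all genes.

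**Figure D1:**
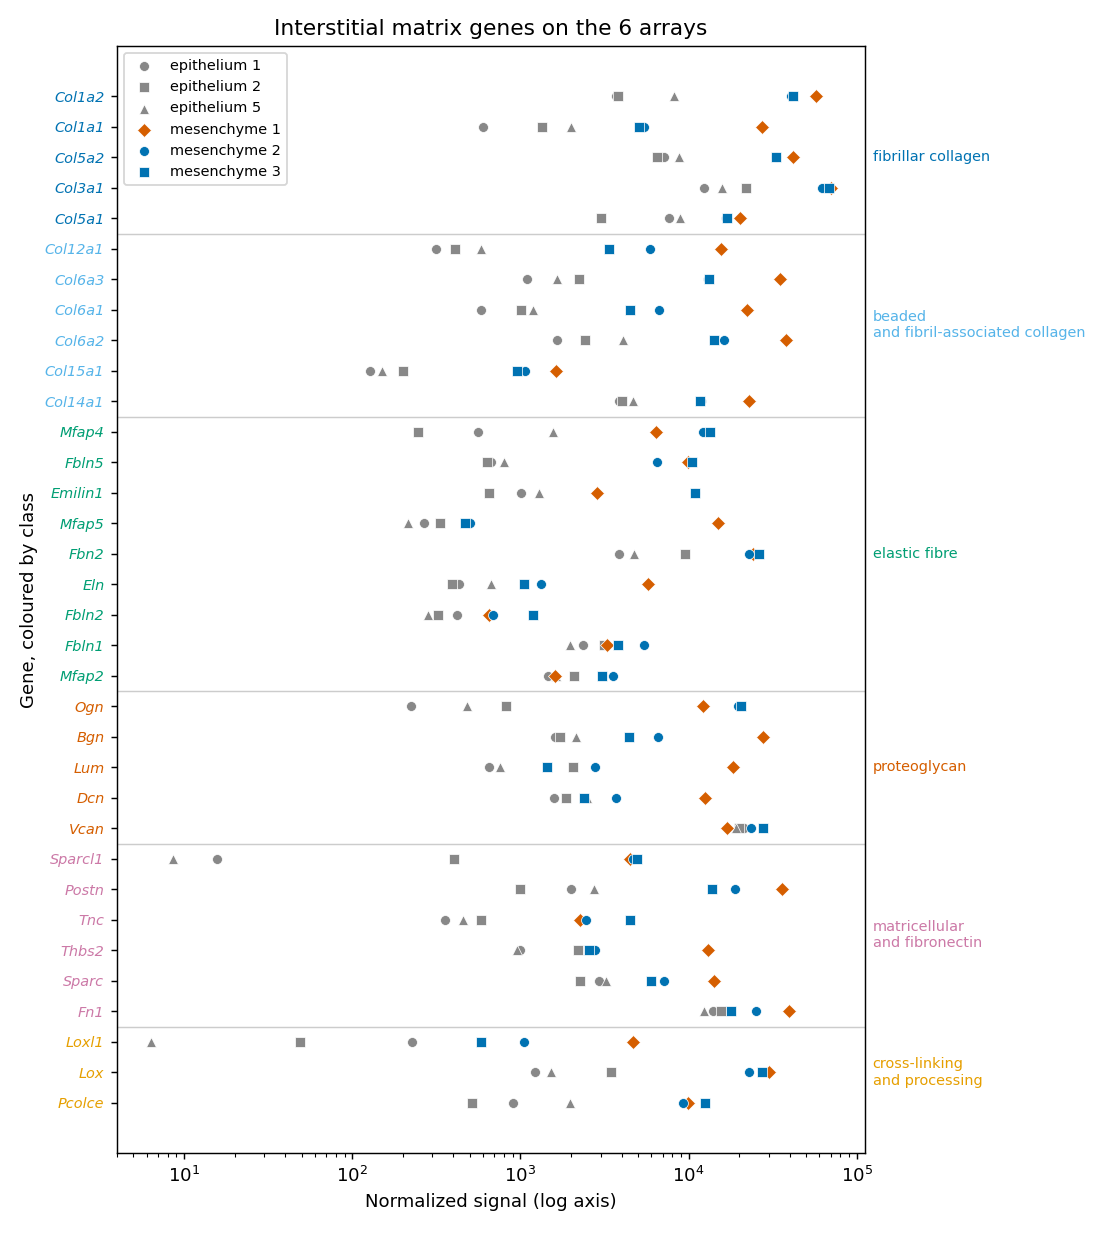
Normalized signal of the 34 measured matrix genes (log axis) on each of the 6 arrays, with the genes grouped by class and 1 point per array. In 30 genes the 3 mesenchyme points lie above all 3 epithelium points, and the 4 where they overlap are Mfap2, Dcn, Lum and Vcan.

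Promoter sequence was at hand for 21 of the 36 genes, in 27 windows of the 250 bases before a transcript start (RefSeq, GRCm38.p6). Windows of 1 gene can overlap. Their median GC content was 57.2%, beside 52.4% over 32851 windows of all genes. Counted on both strands, GGGCGG, the GC box that SP-family factors bind, was in 14 of 27 windows (51.9%, against 32.7% of all windows). TATAAA, the TATA box, was in 6 (22.2% against 12.4%), and CCAAT in 5 (18.5% against 33.8%). CAGACA, a SMAD element, was in 11 (40.7% against 17.1%). TGANTCA, the AP-1 site, was in 1 (3.70% against 6.75%), and CANNTG, the E-box, in 17 (63.0% against 66.2%). These are matches of letters, not shown to be bound. The 4 windows below are shown because their genes cover the patterns that follow: Col1a2 and Col3a1 are collagens that were high on all mesenchyme arrays, Emilin1 was low on mesenchyme 1, and Bgn was high on it. Capitals mark the TATA, CCAAT and GC box letters on either strand.
Col1a2, chr6:4505368-4505617, plus strand: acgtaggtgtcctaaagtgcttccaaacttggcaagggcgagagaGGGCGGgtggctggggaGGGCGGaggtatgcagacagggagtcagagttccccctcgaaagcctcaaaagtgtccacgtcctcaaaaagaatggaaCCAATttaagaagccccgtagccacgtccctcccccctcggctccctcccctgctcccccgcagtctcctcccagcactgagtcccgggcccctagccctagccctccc
Col3a1, chr1:45311288-45311537, plus strand: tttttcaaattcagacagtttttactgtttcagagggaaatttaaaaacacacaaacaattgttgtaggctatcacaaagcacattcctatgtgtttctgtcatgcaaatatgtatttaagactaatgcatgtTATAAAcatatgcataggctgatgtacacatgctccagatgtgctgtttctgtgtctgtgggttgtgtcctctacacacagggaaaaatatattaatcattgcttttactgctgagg
Emilin1, chr5:30913536-30913785, plus strand: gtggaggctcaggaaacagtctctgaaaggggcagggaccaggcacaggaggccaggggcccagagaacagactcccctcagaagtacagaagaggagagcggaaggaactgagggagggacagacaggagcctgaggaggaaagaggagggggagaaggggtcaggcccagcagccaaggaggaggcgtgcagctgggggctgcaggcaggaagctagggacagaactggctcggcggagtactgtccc
Bgn, chrX:73483351-73483600, plus strand: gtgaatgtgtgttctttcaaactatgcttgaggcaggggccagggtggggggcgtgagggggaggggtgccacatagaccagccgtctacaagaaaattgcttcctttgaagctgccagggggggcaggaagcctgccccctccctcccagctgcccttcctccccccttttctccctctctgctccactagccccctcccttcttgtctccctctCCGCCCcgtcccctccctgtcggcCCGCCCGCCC
Col1a2 has 1 CCAAT and 2 GC boxes, and Col3a1 has 1 TATAAA, at -117, and none of the other motifs marked. Emilin1 has none of the 3, and Bgn has 3 GC boxes, of which the last overlaps the one before it. No marked motif occurs in all 4 sequences. Without mesenchyme 1 all 4 genes passed as higher in mesenchyme, and with all arrays Bgn did not.

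Fibrillar collagens, the rope-like trimers that carry tension, were higher in mesenchyme in 3 of 5 genes with all arrays and 4 of 5 without mesenchyme 1 (median difference -2.27, range -3.23 to -1.60, and -2.15 without mesenchyme 1). Col1a2, the second chain of type I collagen, had signals of 3724, 3807 and 8149 on epithelium 1, 2 and 5 and 57486, 40496 and 41626 on mesenchyme 1, 2 and 3. The layers were far apart on every array, and mesenchyme was 9.40-fold higher (difference -3.23 ± 0.338 SE, adjusted p = 0.00455, and 0.00206 without mesenchyme 1). Col3a1, the chain of type III collagen that is abundant in distensible organs, had 12408, 21980.5 and 15731 in epithelium and 70292, 62333 and 68095 in mesenchyme. Its arrays were close within each layer and 4.11-fold apart (-2.04 ± 0.215, adjusted p = 0.00455, and 0.00218 without mesenchyme 1). Col5a2, a chain of type V collagen, which starts fibrils and limits their width, had 7109, 6461 and 8745 in epithelium and 41834, 32991 and 33036 in mesenchyme. It too was separated on every array, at 4.83-fold (-2.27 ± 0.198, adjusted p = 0.00367, and 0.00106 without mesenchyme 1). All 3 of these calls held when any single array was left out.

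Col1a1, the main chain of type I collagen, did not follow Col1a2 on mesenchyme 1 in the probe sets read. Its signals were 596, 1349 and 2011 in epithelium and 27273, 5443 and 5090.4 in mesenchyme, so that mesenchyme 1 was 5.17-fold above the mean of mesenchyme 2 and 3, where Col1a2 was 1.40-fold above it. In the other tested sets mesenchyme 1 was 0.17 log2 units above that mean for Col1a1 and 0.95 and 2.35 for Col1a2. The contrast thus depends on the probe set. With all arrays the 7.66-fold difference of the Col1a1 set used did not pass (-2.94 ± 0.737, adjusted p = 0.0669). Without mesenchyme 1 it was 4.56-fold and passed (-2.19 ± 0.498, adjusted p = 0.0274). It also passed with no normalization (adjusted p = 0.0435), with median centring (0.0366) and with the mean of the probe sets of each gene (0.0304). Col5a1, the partner of Col5a2 in type V collagen, had 7658, 2999 and 8942 in epithelium and 20243, 16759 and 16892 in mesenchyme. The layers did not overlap, but epithelium 2 was low, and the 3.03-fold difference passed neither with all arrays (-1.60 ± 0.410, adjusted p = 0.0712) nor without mesenchyme 1 (-1.51 ± 0.453, adjusted p = 0.0739). It passed without epithelium 2 (-1.12, adjusted p = 0.0387) and with array quality weights (-1.17, adjusted p = 0.0039).

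**Figure D2:**
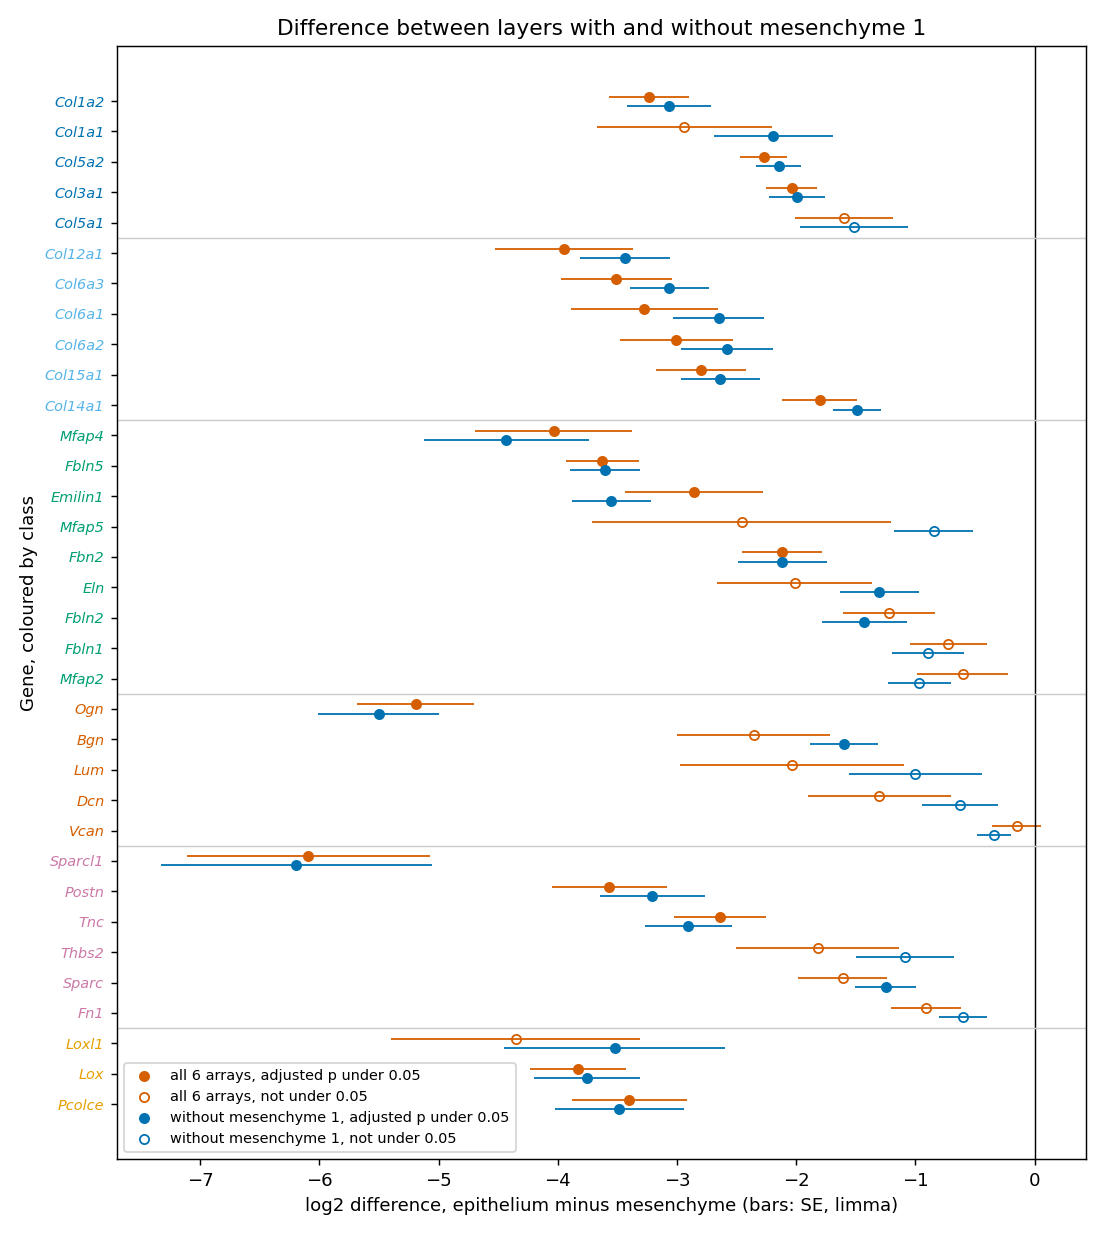
Log2 difference, epithelium minus mesenchyme, of each measured matrix gene with all 6 arrays and without mesenchyme 1, with bars for the standard error and the genes grouped by class. All 34 values lie below 0 in both fits, from -6.09 for Sparcl1 to -0.15 for Vcan with all arrays.

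The beaded and fibril-associated collagens were higher in mesenchyme in 6 of 6 genes in both fits (median difference -3.14, range -3.95 to -1.80, and -2.64 without mesenchyme 1). Type VI collagen forms beaded filaments around cells, and all 3 of its chains passed. Col6a1 had signals of 581, 1003 and 1193 in epithelium and 22302, 6653 and 4456 in mesenchyme, a 9.67-fold difference (-3.27 ± 0.617, adjusted p = 0.0259, and 6.28-fold with 0.00454 without mesenchyme 1). Col6a2 had 1653, 2421 and 4078 in epithelium and 37734, 16145 and 14182 in mesenchyme, 8.04-fold (-3.01 ± 0.474, adjusted p = 0.0146, and 0.00509 without mesenchyme 1). Col6a3 had 1090.0, 2218 and 1647 in epithelium and 35157, 13026 and 13231 in mesenchyme, 11.4-fold (-3.51 ± 0.466, adjusted p = 0.00878, and 0.00177 without mesenchyme 1). In all 3 chains no array of 1 layer reached the range of the other, and mesenchyme 1 was the highest, by 4.09-fold for Col6a1, 2.49-fold for Col6a2 and 2.68-fold for Col6a3 over the mean of mesenchyme 2 and 3.

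Collagens XII and XIV attach to the surface of collagen fibrils and link them to their surroundings. Col12a1 had signals of 316, 407 and 583 in epithelium and 15543, 5867 and 3358 in mesenchyme. Among the 11 collagens of the set, by the probe sets read, it had the greatest difference, 15.4-fold (-3.95 ± 0.577, adjusted p = 0.0115, and 10.8-fold with 0.00184 without mesenchyme 1), and mesenchyme 1 was again the highest array. This rank depends on the probe set: with the mean of the probe sets of each gene the difference was -2.13 for Col12a1 and -3.51 for Col6a3. Col14a1 had 3879, 4012 and 4669 in epithelium and 22710.3, 11787 and 11642 in mesenchyme, a 3.49-fold difference on arrays that were close within epithelium (-1.80 ± 0.311, adjusted p = 0.0192, and 0.00369 without mesenchyme 1). Col15a1, a collagen of the zone next to basement membranes, had 128, 199 and 150.5 in epithelium and 1624, 1070.5 and 961 in mesenchyme. It was dim in epithelium and 6.96-fold higher in mesenchyme, with mesenchyme 1 within 2-fold of the other 2 (-2.80 ± 0.379, adjusted p = 0.00947, and 0.0027 without mesenchyme 1). Several of these calls were lost when an array other than mesenchyme 1 was left out. The fit without mesenchyme 1 also has 1 array fewer, and every gene of the class passed in it. The cause of the losses was not tested. The differences themselves kept their sign. Over all fits with 1 array left out they ran from -2.91 to -2.64 for Col15a1 and, more widely, from -3.78 to -2.65 for Col6a1. Without epithelium 1 the adjusted p was 0.125 for Col6a1, 0.075 for Col6a2, 0.0523 for Col6a3, 0.0737 for Col12a1, 0.101 for Col14a1 and 0.0662 for Col15a1. Without epithelium 2 it was 0.0863 for Col6a1, 0.0585 for Col6a2 and 0.0643 for Col14a1. Without epithelium 5 it was 0.0859 for Col6a1, 0.0505 for Col12a1 and 0.072 for Col14a1. Without mesenchyme 2 it was 0.0772 for Col6a1, 0.0532 for Col6a2, 0.051 for Col12a1, 0.0621 for Col14a1 and 0.0532 for Col15a1. The call of Col14a1 was also lost when its probe sets were averaged (difference -1.25, adjusted p = 0.104) and with probe sets of the unique kind only (-0.70, adjusted p = 0.44).

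Elastic fibre genes were mixed: 4 of the 9 measured were higher in mesenchyme with all arrays and 6 without mesenchyme 1 (median difference -2.12, range -4.03 to -0.60, and -1.43 without mesenchyme 1). Fbln5, which binds elastin and lysyl oxidase-like enzymes and is needed for fibre assembly, had signals of 668, 629 and 798 in epithelium and 9919, 6476 and 10436 in mesenchyme. It was 12.3-fold higher with close arrays in each layer (-3.62 ± 0.308, adjusted p = 0.00358, and 0.000953 without mesenchyme 1), and its call held with any single array left out. Fbn2, the fibrillin of developing microfibrils, had 3874, 9469 and 4765 in epithelium and 24029.9, 22816 and 26291 in mesenchyme. Epithelium 2 was the nearest to mesenchyme, and the difference was 4.34-fold in both fits (-2.12 ± 0.338, adjusted p = 0.015, and 0.00974 without mesenchyme 1). Mfap4, a microfibril-associated glycoprotein, had 561, 246 and 1560.4 in epithelium and 6443, 12134 and 13388 in mesenchyme. Its epithelial arrays varied widely but stayed below mesenchyme, at 16.4-fold (-4.03 ± 0.657, adjusted p = 0.0159, and 21.6-fold with 0.0061 without mesenchyme 1).

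Emilin1, a glycoprotein at the interface of elastin and microfibrils, went the other way on mesenchyme 1 from most matrix genes. Its signals were 1003, 654 and 1288 in epithelium and 2853, 10850.2 and 10859 in mesenchyme. Mesenchyme 2 and 3 were almost equal and mesenchyme 1 was 3.79-fold below their mean, yet still above every epithelium array. The difference was 7.25-fold with all arrays (-2.86 ± 0.576, adjusted p = 0.0326) and 11.7-fold without mesenchyme 1 (-3.55 ± 0.332, adjusted p = 0.00124). Eln, elastin itself, showed the opposite. It had 431, 393 and 666 in epithelium and 5743, 1319.8 and 1052 in mesenchyme, with mesenchyme 1 at 4.82-fold the mean of the other mesenchyme arrays. Its 4.04-fold difference did not pass with all arrays (-2.01 ± 0.654, adjusted p = 0.142) and passed at 2.47-fold without mesenchyme 1 (-1.30 ± 0.330, adjusted p = 0.0412).

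Fbln2, a fibulin of basement membranes and elastic fibres, had signals of 422, 323 and 284 in epithelium and 646, 690.1 and 1192 in mesenchyme. The layers did not overlap. The difference did not pass with all arrays (2.33-fold, adjusted p = 0.133) and passed without mesenchyme 1 (2.69-fold, adjusted p = 0.0402) and with array quality weights (0.00124). The remaining genes of the class passed in neither fit. Fbln1 had 2366, 3150.5 and 1984 in epithelium and 3269, 5407 and 3798 in mesenchyme, separate ranges only 1.65-fold apart (adjusted p = 0.276, and 0.107 without mesenchyme 1). Mfap2 had 1467, 2080.4 and 1637 in epithelium and 1604, 3575 and 3076 in mesenchyme, so mesenchyme 1 lay inside the epithelial range (1.52-fold, adjusted p = 0.44, and 1.96-fold, 0.0546 without mesenchyme 1). Mfap5 had 267, 333 and 215 in epithelium and 14989, 505 and 468 in mesenchyme. A single array set its mean: mesenchyme 1 was 29.9-fold above mesenchyme 2 and 3, and the 5.49-fold difference (adjusted p = 0.34) shrank to 1.80-fold without it (adjusted p = 0.159).

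Calls in the elastic fibre class were also lost when other arrays were left out. The adjusted p of Fbn2 was 0.0725 and 0.077 when epithelium 1 or 5 was left out, 0.0635 and 0.0565 when mesenchyme 2 or 3 was, and 0.0843 with median centring. The difference of Mfap4 was -3.36 without epithelium 2 and -4.71 without epithelium 5, and its adjusted p was 0.0875 without epithelium 1, 0.0685 without mesenchyme 2 and 0.0541 without mesenchyme 3. The adjusted p of Emilin1 was 0.134, 0.111, 0.0984, 0.127 and 0.0976 without epithelium 1, 2 and 5 and mesenchyme 2 and 3 in turn, and 0.0553 with median centring, so that mesenchyme 1 was the only array whose absence kept its call.

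**Figure D3:**
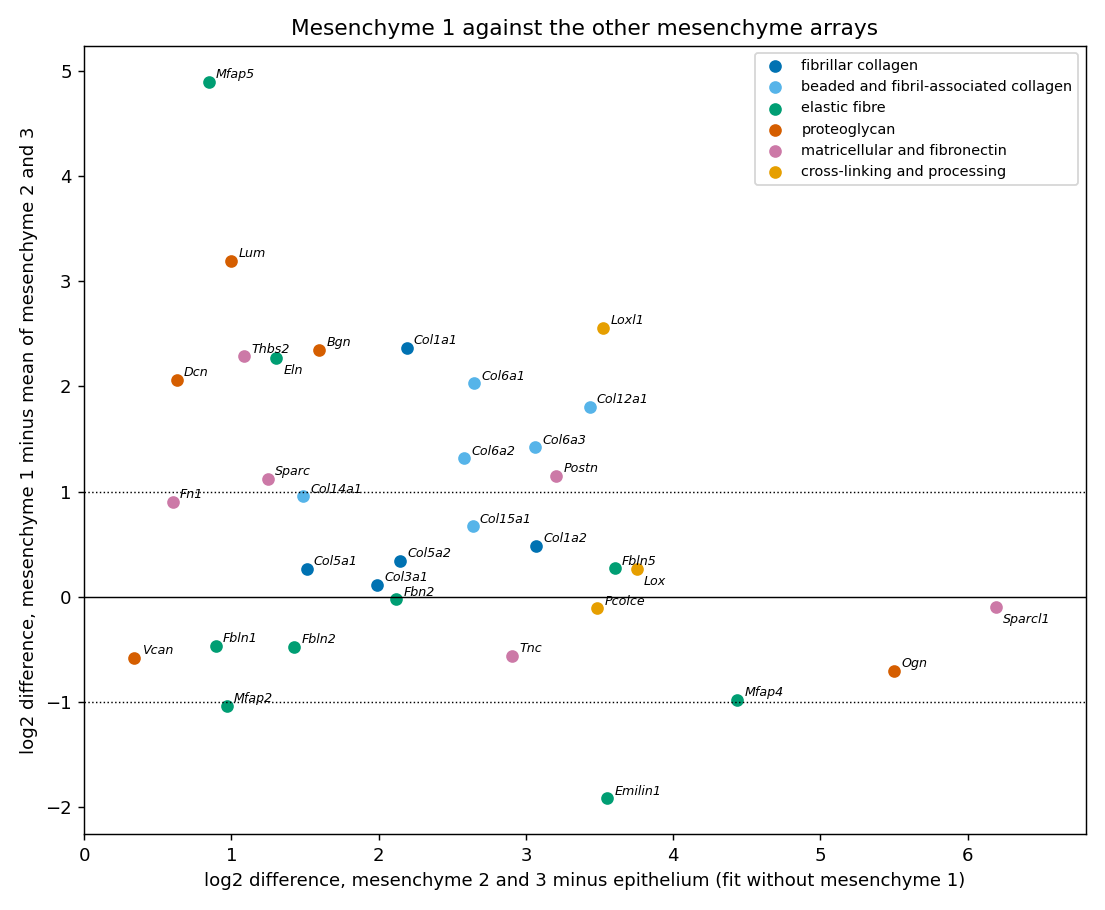
Each point is a measured matrix gene, coloured by class: the vertical axis is its log2 level on mesenchyme 1 minus the mean of mesenchyme 2 and 3, with dotted lines at a 2-fold difference, and the horizontal axis is the log2 difference of mesenchyme 2 and 3 minus epithelium. Mfap5 is farthest above (4.90) and Emilin1 farthest below (-1.92).

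Among the proteoglycans only Ogn was higher in mesenchyme in both fits, and Bgn was added without mesenchyme 1 (1 and 2 of 5 genes, median difference -2.03, range -5.19 to -0.15, and -0.999 without mesenchyme 1). Ogn, osteoglycin, a small leucine-rich proteoglycan that binds collagen, had signals of 225, 820.3 and 483 in epithelium and 12244, 19549 and 20473 in mesenchyme. The layers were 36.5-fold apart (-5.19 ± 0.491, adjusted p = 0.0039, and 45.3-fold with 0.0012 without mesenchyme 1), and the call held with any single array left out. Bgn, biglycan, whose promoter with 3 GC boxes is printed above, had 1604, 1724 and 2131 in epithelium and 27623, 6619 and 4417 in mesenchyme. Its epithelial arrays were close together, and mesenchyme 1 was 5.10-fold above the other mesenchyme arrays. The difference was 5.12-fold with all arrays and did not pass (-2.36 ± 0.643, adjusted p = 0.0859), and 3.03-fold without mesenchyme 1, where it passed (-1.60 ± 0.284, adjusted p = 0.0101). With the mean of its probe sets it passed with all arrays (-3.25, adjusted p = 0.0252).

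Dcn and Lum, decorin and lumican, regulate the spacing of collagen fibrils and are adjacent genes. Dcn had signals of 1577, 1867 and 2481 in epithelium and 12521, 3723 and 2387 in mesenchyme, so mesenchyme 3 lay below epithelium 5. Lum had 653, 2066 and 760.2 in epithelium and 18393, 2771 and 1434 in mesenchyme, so mesenchyme 3 lay below epithelium 2. For both, mesenchyme 1 was far above the other mesenchyme arrays, 4.18-fold for Dcn and 9.16-fold for Lum, and the layers overlapped. Neither passed with all arrays (2.47-fold, adjusted p = 0.29 for Dcn, and 4.10-fold, 0.291 for Lum) or without mesenchyme 1 (1.55-fold, 0.28, and 2.00-fold, 0.324). Vcan, versican, the large hyaluronan-binding proteoglycan of loose embryonic matrix, was near equal in the layers. Its signals were 21293, 19805 and 19212 in epithelium and 17007, 23534 and 27659 in mesenchyme, with mesenchyme 1 the lowest of all 6. The difference was -0.15 ± 0.208 (adjusted p = 0.726) and -0.34 ± 0.145 without mesenchyme 1 (0.191), and it turned to 0.17 with median centring (adjusted p = 0.852) and to 0.00397 without mesenchyme 3 (0.995).

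Matricellular proteins bind matrix and cell receptors without forming the main fibres. With fibronectin, 3 of 6 were higher in mesenchyme with all arrays and 4 without mesenchyme 1 (median difference -2.23, range -6.09 to -0.91, and -2.08 without mesenchyme 1), and in 6 of 6 the layers did not overlap. Sparcl1, a SPARC relative, had the greatest difference of all matrix genes. Its signals were 15.6, 405 and 8.62 in epithelium and 4484, 4655 and 4932 in mesenchyme, 68.2-fold apart (-6.09 ± 1.02, adjusted p = 0.0173, and 73.2-fold with 0.0114 without mesenchyme 1). The mesenchyme arrays were almost equal, while epithelium 2 was 15.1-fold above the mean of epithelium 1 and 5. The values on epithelium 1 and 5 were below the offset of 16 added before the logarithm, and no detection calls were used, so the fold is no bound. The difference was -6.88 with an offset of 1 and -5.09 with 64, -7.33 without epithelium 2, -5.39 without epithelium 5 and -7.22 with array quality weights. Postn, periostin, which binds collagen and fosters its cross-linking, had 1989.7, 995 and 2749 in epithelium and 35774, 18771 and 13853 in mesenchyme. It was 11.8-fold higher (-3.57 ± 0.483, adjusted p = 0.00947, and 0.00369 without mesenchyme 1), with no overlap. Tnc, tenascin-C, a glycoprotein of remodelling matrix, had 358, 582 and 456 in epithelium and 2254, 2470.4 and 4496 in mesenchyme. It was 6.23-fold higher, and mesenchyme 1 was here the lowest of the mesenchyme arrays (-2.64 ± 0.388, adjusted p = 0.0117, and 0.00268 without mesenchyme 1).

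Sparc, which binds collagen and helps its fibrils form, had signals of 2931, 2265 and 3207 in epithelium and 14257, 7138 and 6006 in mesenchyme. It just missed the threshold with all arrays (3.05-fold, -1.61 ± 0.375, adjusted p = 0.053) and passed without mesenchyme 1 (2.38-fold, adjusted p = 0.0173). With all arrays it also passed with no normalization (adjusted p = 0.0353), a filter at the 60th percentile (0.0485) and probe sets of the unique kind (0.0486). Thbs2, thrombospondin 2, had 989, 2200.3 and 951 in epithelium and 13108, 2791 and 2560.1 in mesenchyme. The layers did not overlap, but mesenchyme 1 was 4.88-fold above mesenchyme 2 and 3, and it passed in neither fit (3.53-fold, adjusted p = 0.199, and 2.12-fold, 0.145 without mesenchyme 1). Fn1, fibronectin, on which cells assemble other matrix, had 13939, 15575 and 12428 in epithelium and 39748, 25151 and 17924 in mesenchyme. It was 1.88-fold higher with all arrays (adjusted p = 0.14) and 1.52-fold without mesenchyme 1 (0.104), which passed in neither case. Among the calls of this class, that of Postn ended without epithelium 1 (adjusted p = 0.0549). That of Sparcl1 ended when epithelium 1 (0.0914) or 5 (0.0768) or mesenchyme 2 (0.0674) or 3 (0.0541) was left out. That of Tnc ended without epithelium 1 (0.0779), epithelium 5 (0.0629) or mesenchyme 2 (0.0534).

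The cross-linking and processing genes had the largest median difference of the 6 classes, -3.83 (range -4.35 to -3.40, and -3.52 without mesenchyme 1), and 2 of the 3 measured passed with all arrays and 3 of 3 without mesenchyme 1. Lox, lysyl oxidase, which oxidises lysines of collagen and elastin so that they cross-link, had signals of 1219, 3478 and 1521 in epithelium and 30172, 23007 and 27367 in mesenchyme. Epithelium 2 was the highest of its layer and still far below mesenchyme, 14.2-fold overall (-3.83 ± 0.402, adjusted p = 0.00455, and 0.00224 without mesenchyme 1). This call held with any single array left out. Pcolce, the enhancer of the proteinase that trims the procollagen C end, had 902, 519 and 1983 in epithelium and 9941, 9204 and 12516 in mesenchyme, where the arrays were close. It was 10.5-fold higher (-3.40 ± 0.485, adjusted p = 0.011, and 0.00602 without mesenchyme 1), and the call ended without epithelium 1 (0.0699) or mesenchyme 2 (0.0502). Loxl1, the lysyl oxidase relative tied to elastic fibres, had 227, 48.7 and 6.37 in epithelium and 4697, 1050.0 and 582 in mesenchyme. Its arrays spread widely in both layers without overlap, mesenchyme 1 was 5.90-fold above the other mesenchyme arrays, and the difference was 20.4-fold with all arrays (-4.35 ± 1.05, adjusted p = 0.0585) and 11.5-fold without mesenchyme 1, where it passed (-3.52, adjusted p = 0.0474). It also passed with no normalization (adjusted p = 0.0401) and with median centring (0.0293) of all 6 arrays. The value on epithelium 5 was below the offset, so this fold is no bound either. The difference was -5.04 with an offset of 1 and -3.51 with 64, -5.24 and -3.57 when epithelium 1 or 5 was left out, -4.96 without mesenchyme 3 and -1.63 with array quality weights.

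**Figure D4:**
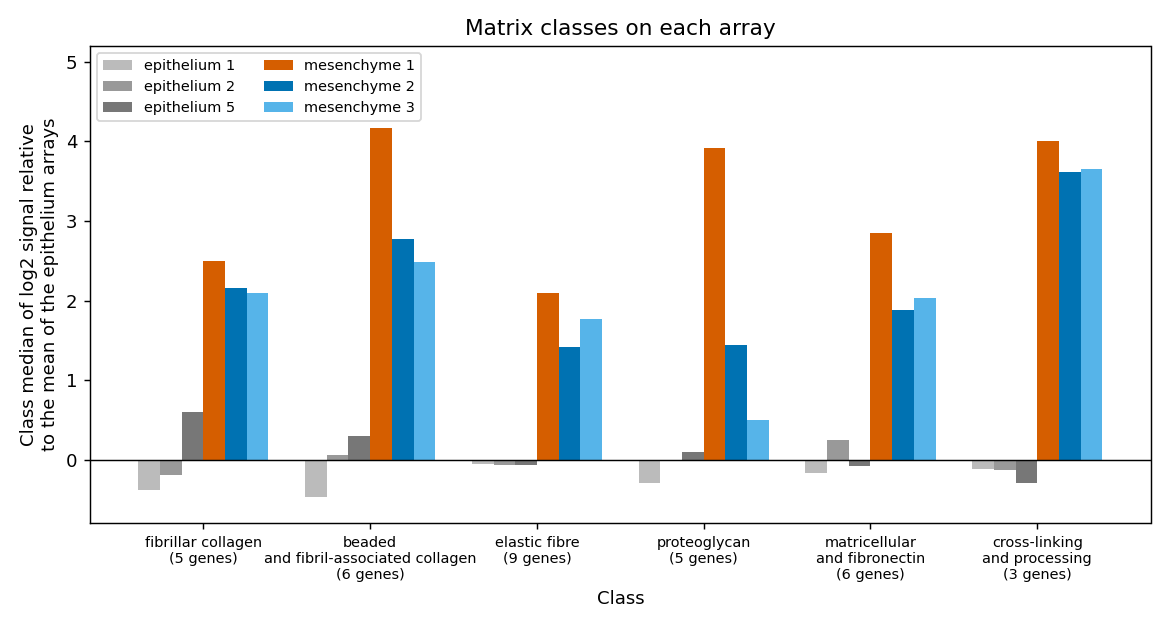
Bars give the median over the genes of each class of the log2 level relative to the gene's mean on the epithelium arrays, for each of the 6 arrays. The cross-linking class lies at 4.01, 3.62 and 3.66 on mesenchyme 1, 2 and 3, and the proteoglycans at 3.92, 1.44 and 0.50.

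Mesenchyme 1 thus differed from mesenchyme 2 and 3 in some matrix genes and not in others. It was more than 2-fold above their mean in 14 of 34 genes (41.2%, where 15.8% of all genes were) and more than 2-fold below it in 2, Mfap2 and Emilin1 (5.88%, where 22.7% of all genes were). In the other 18 it lay within 2-fold. These are values of the probe set read for each gene. The other tested set had 1589 on mesenchyme 1 against 792 and 1101 on mesenchyme 2 and 3 for Mfap2. For Col1a1 it had 376 against 416 and 263. Mesenchyme 1 was the highest of all 6 arrays in 22 of 34. Mesenchyme 2 and 3, which correlated at 0.981 across tested genes, were within 2-fold of each other in all 34. For these counts the shares of all genes were not computed, so they are not read as particular to matrix genes. The values of mesenchyme 1 are descriptions of 1 array and have no test. The genes more than 4-fold above were Col1a1, Col6a1, Eln, Mfap5, Dcn, Bgn, Lum, Thbs2 and Loxl1, and the share of all genes so far above was not counted. In these 9 the fold between the layers was over 1.5 times larger with mesenchyme 1 than without it, which follows from how they were chosen. Of these 9, only Col6a1 passed the test with all arrays. By class, the median level on mesenchyme 1 relative to mesenchyme 2 and 3 was 2.06 log2 units for proteoglycans, 1.37 for beaded and fibril-associated collagens and 1.01 for matricellular genes. It was 0.34 for fibrillar collagens, 0.27 for cross-linking genes and -0.47 for elastic fibre genes. The last is a median of differences by gene: the class median relative to epithelium, which can fall on another gene on each array, was 2.10 on mesenchyme 1 and 1.42 and 1.77 on mesenchyme 2 and 3. The 13 genes that passed with all arrays and lay within 2-fold on mesenchyme 1 were Col1a2, Col3a1, Col5a2, Col14a1, Col15a1, Fbn2, Fbln5, Mfap4, Ogn, Sparcl1, Tnc, Lox and Pcolce.

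Epithelium varied too. Epithelium 2 was more than 2-fold above the mean of epithelium 1 and 5 in 6 genes, Fbn2, Lum, Ogn, Sparcl1, Thbs2 and Lox, and more than 2-fold below it in 4, Col5a1, Mfap4, Postn and Pcolce. These are 17.6% and 11.8% of the 34, where 10.1% and 8.66% of all genes were. The elastic fibre, matricellular and cross-linking classes each had genes in both sets. Class medians relative to the epithelial mean ran from -0.47 (beaded and fibril-associated collagens) to -0.06 (elastic fibre genes) on epithelium 1 and from -0.19 (fibrillar collagens) to 0.25 (matricellular genes) on epithelium 2. On epithelium 5 they ran from -0.29 (cross-linking genes) to 0.60 (fibrillar collagens).

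Several matrix genes lie side by side in the genome (RefSeq order), and neighbours were alike in some pairs and not in others. Col3a1 and Col5a2 are neighbours and were 4.11-fold and 4.83-fold higher in mesenchyme, with mesenchyme 1 within 2-fold for both. Col6a1 and Col6a2 are neighbours and were 9.67-fold and 8.04-fold higher, with mesenchyme 1 the highest array for both. Dcn, Lum and Kera, keratocan, follow one another. Kera, chosen after its values were seen, had signals of 4348 on mesenchyme 1 against 149.9 and 144 on mesenchyme 2 and 3, so that all 3 were highest on mesenchyme 1. Omd, osteomodulin, next to Ogn, was likewise highest on mesenchyme 1, at 663 against 22.1 and 9.24, where Ogn was lowest of the mesenchyme arrays. Omd fell under the filter on low signal and was not tested, and its 146 on epithelium 5 was above mesenchyme 2 and 3. Hapln1, a hyaluronan link protein next to Vcan, was highest on mesenchyme 1 (4674 against 3488 and 2867), where Vcan was lowest. Smoc2, next to Thbs2, had a difference of 1.36 (adjusted p = 0.135), against -1.82 for Thbs2.

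Several genes were measured by more than 1 probe set, and these did not always give the same size of difference. The 34 genes have 77 probe sets of their own, of which 62 were tested. Where 20 genes had several tested sets, 12 showed differences spread over more than 1 log2 unit, with a median spread of 1.12. In 3, Fbln1, Sparc and Vcan, the probe sets differed in sign. For Sparc the set used gave -1.61 and the others -1.48 and 0.34. For Fbln1 the set used gave -0.72 and the others -0.33 and 0.60. The set used for Col12a1 gave -3.95 and its other -0.32, whereas for Lox both were large, -3.83 and -4.85. For Bgn the others gave -4.26 and -3.13, both larger than the -2.36 of the set used. With the mean of the probe sets the difference was -2.13 for Col12a1, -2.91 for Col3a1, -2.32 for Col6a2 and -2.96 for Fbln5, and with sets of the unique kind it was -3.78 for Col3a1 and -4.18 for Col1a2. Col1a2, Col3a1, Col6a2, Col14a1, Fbln2 and Pcolce are read from sets of the _a_at kind, which match several transcripts of a gene.

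**Figure D5:**
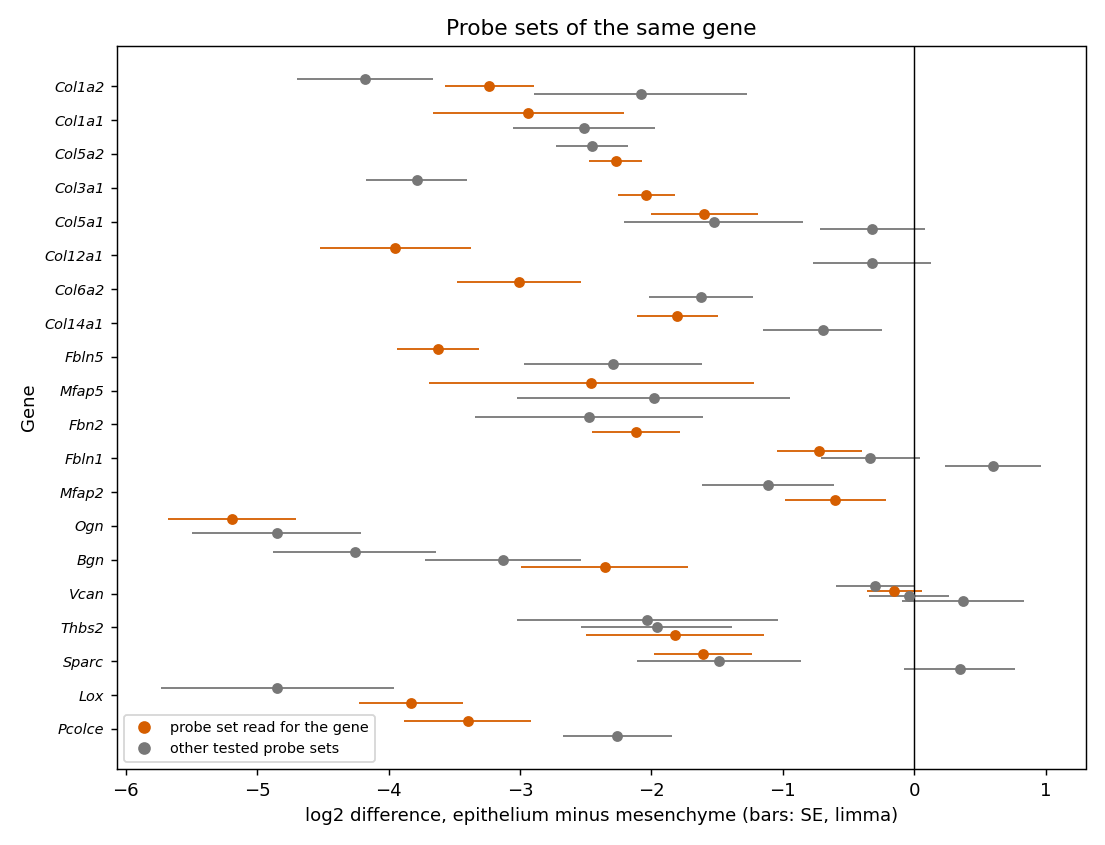
Log2 difference, epithelium minus mesenchyme, of every tested probe set of each matrix gene with more than 1, with bars for the standard error and the set used in orange. Most sets lie below 0; a set of Fbln1 (0.60), of Sparc (0.34) and of Vcan (0.37) lie above it.

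The other genes of the same pathways were read from lists of 114 genes, of which 92 were tested. With all arrays 23 of the 92 passed as higher in mesenchyme and 1 as higher in epithelium, with a median difference of -1.17. Without mesenchyme 1, these counts were 35 and 6 of 83. Over all genes the shares higher in mesenchyme were 4.03% with all arrays and 8.2% without mesenchyme 1, and those higher in epithelium 1.95% and 6.41%, so the 6 of 83 are near the share over all genes. With epithelium 1, 2 or 5 left out, 3, 14 and 6 genes passed in all, and with mesenchyme 2 or 3 left out, 5 and 9. Of 19 genes of the collagen synthesis machinery 5 were higher in mesenchyme, led by Colgalt2, which adds galactose to collagen (6.39-fold, adjusted p = 0.0283), Plod1, a lysyl hydroxylase (5.34-fold, 0.0138) and P3h1, a prolyl hydroxylase (3.63-fold, 0.0164). Plod1 had signals of 96.3, 141 and 96.0 in epithelium and 728, 577 and 666 in mesenchyme, and P3h1 had 256, 292 and 300.0 against 1044, 1082 and 1067. Both were thus separated by layer with close arrays, including mesenchyme 1. Of 7 tested genes of further processing and cross-linking 3 were higher in mesenchyme. These were Pcolce2, the relative of Pcolce (49.1-fold, adjusted p = 0.00427), Tgm2, a transglutaminase (9.80-fold, 0.0332), and Adamts3, a procollagen N-proteinase (6.34-fold, 0.0162). Pcolce2 had signals of 5.33, 6.07 and 16.4 in epithelium and 2488, 747 and 930 in mesenchyme. Its epithelial values were near or below the offset of 16, so its fold is no bound.

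Of 18 tested genes for other interstitial collagens 4 were higher in mesenchyme, led by Col9a1 (21.5-fold, adjusted p = 0.0219), Col24a1 (6.27-fold, 0.0471) and Col11a1 (6.08-fold, 0.0475). Col9a1, a collagen of cartilage and also in the cartilage marker list, had signals of 16744, 5617 and 2499.9 on mesenchyme 1, 2 and 3. Of 13 genes in the list of other elastic fibre genes, which also holds the multimerins Mmrn1 and Mmrn2, 4 were higher. They were led by Mmrn2 (33.4-fold, adjusted p = 0.00803), Emilin2 (6.72-fold, 0.0219) and Mmrn1 (5.02-fold, 0.0162). Mmrn2 is a multimerin of blood vessels, and the summed signal of 8 endothelial markers was 15226 to 18921 on the mesenchyme arrays against 956 to 2521 on epithelium. Of 13 tested genes for other proteoglycans and hyaluronan 2 were higher, Aspn, asporin (39.8-fold, adjusted p = 0.0135), and Ncan, neurocan (22.1-fold, 0.0422). Aspn had signals of 6.32, 27.9 and 4.79 in epithelium and 3639, 739 and 448 in mesenchyme. Ncan had 254, 24.8 and 8.85 against 3453, 842 and 972. Both had epithelial values below the offset of 16, so these folds are no bound. Of 22 tested matricellular genes 5 were higher in mesenchyme, led by Tnr, tenascin-R (17.1-fold, adjusted p = 0.0162), Spon1 (16.5-fold, 0.00762) and Spock1 (8.33-fold, 0.00599). Tnr had signals of 54.5, 9.35 and 19.6 in epithelium, with epithelium 2 below the offset, so its fold is no bound either. Ncan and Tnr are matrix genes of the nervous system, and 7 measured neuronal markers summed to 26926 to 38696 on mesenchyme against 621 to 1292 on epithelium. The part of vessels and nerves in these differences was not tested. The single gene higher in epithelium was Spock2, a testican, chosen after its values were seen (signals 649.8, 612 and 1045 against 171, 179.6 and 119, difference 2.16, adjusted p = 0.0235). Without mesenchyme 1 the genes named here passed again, except Pcolce2 and Aspn, which fell under the filter on low signal and were not tested. Both were highest on mesenchyme 1 and entered the test with all arrays only through it, so their calls there depend on that array. Leaving out mesenchyme 1 moved the fold by over 1.5 times for Tgm2 (to 6.28-fold), Col9a1 (13.9-fold), Col11a1 (4.03-fold) and Ncan (14.5-fold), which were lower without it, and for Tnr (26.3-fold), which was higher.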

How the data were processed

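RNA of each layer was measured on Affymetrix whole-genome arrays. The deposited table holds 1 probe set intensity per array on a linear scale; GCOS is named per the submitters' processing notes, with version and settings not given in the sources used here. The authors' intensities had trimmed means of 1493 to 1497, and array medians of 126 to 254. Of 45101 probe sets, 64 controls were left out, 34945 name 1 gene, 932 several and 9160 are unnamed here; 34741 matched RefSeq (GRCm38.p6) by gene identifier. From the deposited intensities, log2(signal + 16) was quantile normalized, probe sets above the 40th percentile of mean were kept, and limma 3.58.1 (R 4.3.3) tested the layers against each other (intensity trend, no covariate, Benjamini-Hochberg over all genes). Normalization and filter were recomputed without mesenchyme 1. The number of arrays limits the precision.

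The members and lists were chosen with earlier results of these data known. All members are named, and up to 3 passing genes of each pathway list with the largest difference. Code was tested on simulated data. Alternatives were other offsets, scalings, filters, probe set choices, limma settings, array weights, the replicate block and each array left out.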

Additional observations from a re-analysis of the deposited data

How the results depend on the processing

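With offsets of 1 and 64, median centring or no normalization, a 60th percentile filter or none, other choices of probe set and limma without trend or robust, 17 to 22 matrix genes passed, 723 to 954 of all genes and 16 to 25 pathway genes, and the median difference of the matrix genes ran from -2.67 to -2.41. Leaving out each array in turn gave 6 to 25 matrix genes, 143 to 1983 of all genes and 3 to 41 pathway genes, the lowest without epithelium 1 and the highest without mesenchyme 1, and medians from -2.86 to -2.17. Array quality weights, whose estimate stopped early, gave 31 matrix genes, 5109 of all genes and 57 pathway genes, and only Mfap5, Dcn and Loxl1 of the measured matrix genes did not pass; the cause was not tested. Vcan changed sign, to 0.17 with median centring and 0.0376 with the replicate block, and ran from -0.34 without mesenchyme 1 to 0.00397 without mesenchyme 3.

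Replicate numbers 1 and 2 occur in both layers. The deviations of same-numbered arrays from their layer means correlated at -0.05 and -0.02. With so few arrays per layer, and mesenchyme 1 standing apart, this cannot show whether same-numbered arrays share an embryo, which is not recorded. The replicate block leaves 1 residual degree of freedom and gave 0 matrix genes (29 at unadjusted p under 0.05 by limma), 0 of all genes (1460 unadjusted) and 0 pathway genes (39 unadjusted), with a median of -2.84 for the matrix genes. Signals carry no detection calls here, so dim values have no bound.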

Other observations

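Some matrix genes outside the set were higher in epithelium and passed the test only without mesenchyme 1 (limma, adjusted p under 0.05). They were chosen after their values were seen. Col7a1, the collagen of the anchoring fibrils beneath stratified epithelia, had signals of 1573, 1379.8 and 1871 on epithelium 1, 2 and 5 and 1447, 549.9 and 436 on mesenchyme 1, 2 and 3 (difference 1.73, adjusted p = 0.00671, against 1.16 and 0.247 with all arrays). Has3, a hyaluronan synthase, had 2033, 1558 and 3478 in epithelium and 2849.8, 227 and 218 in mesenchyme (3.32, adjusted p = 0.00201, against 2.04 and 0.302). Has2, another hyaluronan synthase, had the opposite pattern, with 571, 1017 and 662 in epithelium and 691, 3668 and 4447 in mesenchyme (-2.51, adjusted p = 0.00304, against -1.61 and 0.27). In Col7a1, Has3 and Has2 the value of mesenchyme 1 lay between the lowest and the highest values of epithelium. Fmod, Ccn2 and Spon2 too passed as higher in epithelium only without mesenchyme 1 (2.62, 1.81 and 2.55, adjusted p = 0.0217, 0.0253 and 0.0061). Of these, Fmod on mesenchyme 1 (22151) lay above every epithelium array, Spon2 (731) below every one, and Ccn2 (13614) between them.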
